A study of Mus musculus with 20 samples.

Results

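Interferon-stimulated genes were followed in calf muscle (gastrocnemius) of mice treated with a plant extract and of untreated mice. The genes were a list of 9 that type I interferon is known to induce, Ifit1, Ifit3, Isg15, Irf7, Oasl2, Rsad2, Bst2, Usp18 and Rtp4, matched by symbol to the Ensembl identifiers of the deposited counts. All 9 were found among the 55401 genes listed, and all 9 passed the filter on low counts, which left 13626 genes. The 20 mice were 24 months old. Haenkenium (HK), an extract of the sage Salvia haenkei, had been given to 10 of them at 0.5 mg per kg and day with the water they drank from the age of 20 months, and the other 10 were untreated. Of either group, 5 mice were male and 5 female. The labels name a pair of experimental batches, of which the first holds 4 treated and 4 untreated mice and the second 6 and 6. RNA was sequenced in bulk after removal of ribosomal RNA, so a level is an average over all cells of the muscle. Total counts ran from 13900180 to 30469644 per mouse, with a median of 20950853 in batch 1 and of 15766066 in batch 2. Genes of the muscle fibre dominated the libraries as the tissue label says, with a summed level of 177951 CPM (counts scaled by the library total times its TMM factor) in the median mouse for 10 fibre genes, all 10 past the filter, led by the myosin gene Myh4 at a mean of 60135 CPM.

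Type I interferons are secreted proteins that bind the receptor chains IFNAR1 and IFNAR2, which activate the kinases JAK1 and TYK2. These phosphorylate STAT2, which works with IRF9 in a complex that enters the nucleus, binds the interferon-stimulated response element and switches on a large set of antiviral genes. Most nucleated cells, muscle fibres included, can respond, and low transcription of these genes persists in tissues without infection.

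The promoters are shown first, since the response element is the site through which interferon acts on such genes. Promoters of RefSeq on GRCm38.p6, 250 bases before to 50 bases after the start of transcription, were at hand for 7 of the 9 genes, with Usp18 and Rtp4 missing. They were searched on both strands for GAAANNGAAA, the core of the response element, which reads TTTCNNTTTC on the other strand. At least 1 match lay in the promoters of 5 of the 7 genes, Ifit1, Ifit3, Isg15, Rsad2 and Bst2. The windows of Irf7 and Oasl2 held none, which says only that these letters do not occur there. Of all 32851 promoters of this length, 3.44% held the motif. Among promoters of other interferon-induced genes, a list of 93 symbols, it was 39 of 95, or 41.1%. The stretches below, each upstream of its gene and in no annotated gene, run 5′ to 3′ in the direction of transcription with the matches in capitals. That of Ifit1 lies at chr19:34640760-34640838 on the plus strand, that of Ifit3 at chr19:34583348-34583441 on the plus strand, and that of Isg15 at chr4:156200850-156200921 on the minus strand. The stretch of Rsad2 lies at chr12:26456538-26456597 and that of Bst2 at chr8:71537562-71537627, both on the minus strand.
Ifit1: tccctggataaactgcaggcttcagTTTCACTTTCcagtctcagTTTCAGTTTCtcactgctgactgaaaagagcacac
Ifit3: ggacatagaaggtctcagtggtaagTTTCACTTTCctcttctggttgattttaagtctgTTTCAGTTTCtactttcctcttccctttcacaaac
Isg15: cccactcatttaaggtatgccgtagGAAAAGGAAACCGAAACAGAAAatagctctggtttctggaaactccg
Rsad2: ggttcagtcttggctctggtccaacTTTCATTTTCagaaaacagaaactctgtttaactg
Bst2: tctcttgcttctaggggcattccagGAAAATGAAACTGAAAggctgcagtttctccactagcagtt
Ifit1 and Ifit3 each held 2 separate matches. Isg15 held 3 overlapping matches that form 1 run of capitals, and Bst2 held 2 overlapping ones. The single match of Rsad2 ended 110 bases before the start, and the match of Isg15 nearest to the start ended 56 bases before it. A match is a description of the letters, and binding of any factor was not measured.

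Levels were low throughout. In CPM per kilobase of exon (RPKM), which allows genes of different length to be compared, the median over the 20 mice was highest for Bst2, at 5.72. It was 1.42 for Ifit3, 1.17 for Isg15, 0.915 for Rtp4, 0.895 for Rsad2 and 0.860 for Ifit1. Irf7, Usp18 and Oasl2 followed at 0.756, 0.709 and 0.452. The value of Irf7 is understated, since its annotated exons together cover the whole gene. Bst2 stood apart from 6 of the others: its lowest mouse, at 2.54 RPKM, was above the highest mouse of Ifit1 (2.15), Rsad2, Rtp4, Irf7, Usp18 and Oasl2. Ifit3, with up to 2.81 RPKM, and Isg15, with up to 5.19, reached into its range, and below Bst2 each gene overlapped its neighbours in this order. For comparison, the median was 25.5 RPKM for the receptor kinase gene Jak1 and 74.7 for B2m, the light chain of MHC class I molecules.

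The question of the first comparison was whether HK changed these genes in aged muscle. With treatment 8 of the 9 were higher and 1, Rsad2, was lower, and none passed an adjusted p of 0.05 in the quasi-likelihood test of edgeR with batch and sex as covariates and Benjamini-Hochberg adjustment. Over all genes tested 0 passed (0%), with 379 higher and 456 lower at an unadjusted p under 0.05 (6.13%), and 0 of the 9 genes were among those. DESeq2's Wald test called 6 genes and limma voom 0, again with 0 of the 9 among them. The median log2 fold change of the 9 genes was 0.16, against 0.0024 over all genes tested, of which 51.0% were above 0. In limma voom 7 of the 9 were higher and their median was 0.059, while DESeq2 gave 8 and 0.16. HK-treated and untreated mice overlapped for every one of the 9 genes. Overlap was not counted over all genes tested, so it is not shown to be particular to these 9. The count changed with single mice: 5 of the 9 genes were higher without HK female 4, and the median of their log2 fold changes was then 0.026, and 5 without HK male 2, where it was 0.047. Within batch 2 alone 5 were higher, and within batch 1 alone 7.

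**Figure D1:**
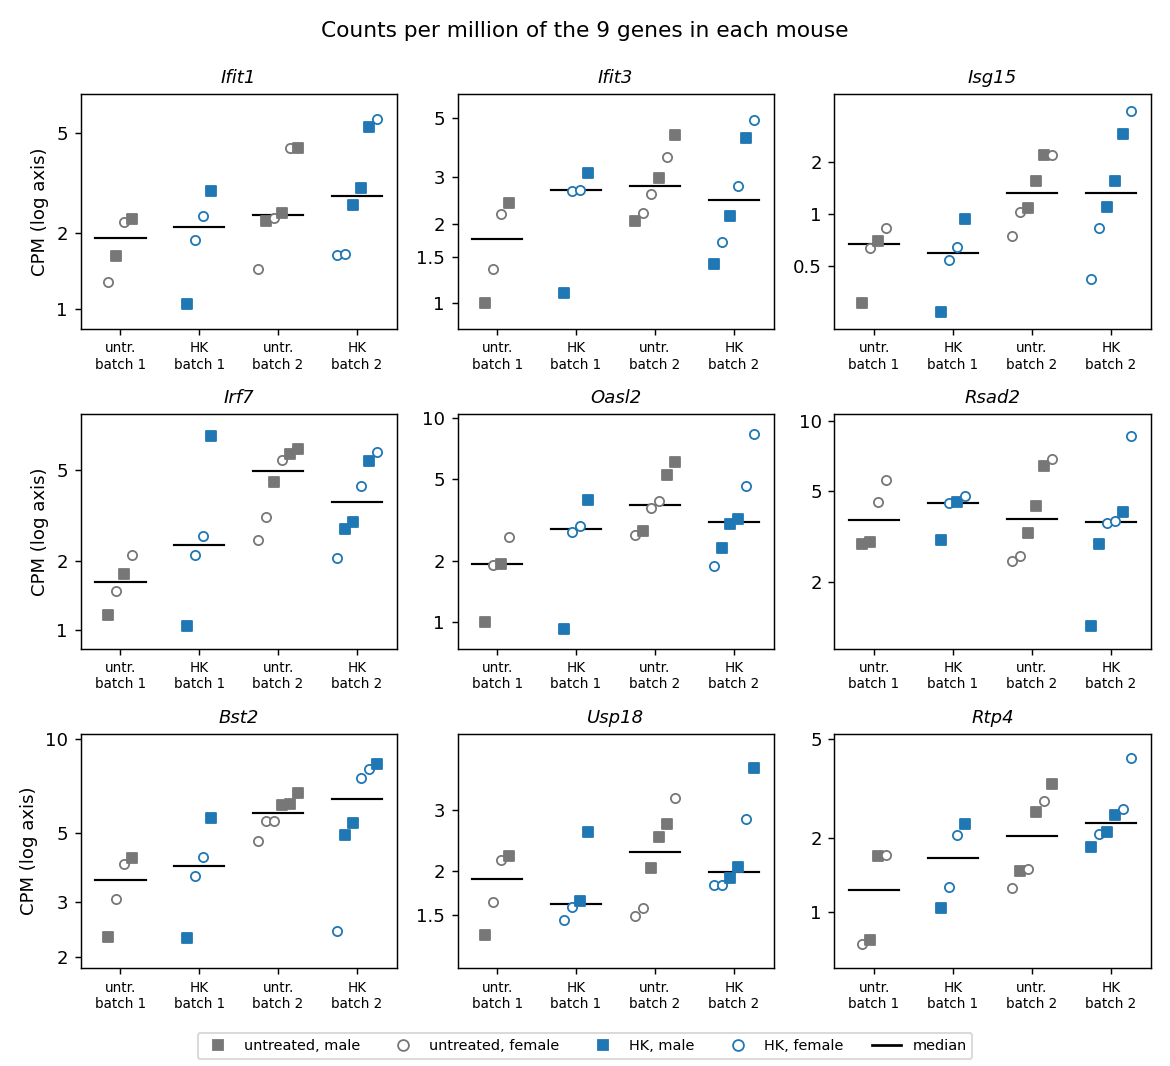
CPM (log axis) of the 9 genes in each of the 20 mice, by treatment and batch; filled squares are males, open circles females, and black lines medians of the 4 or 6 mice. For Isg15 the median was 0.640 CPM in batch 1 and 1.32 CPM in batch 2. HK-treated and untreated mice overlapped in each gene shown, and overlap was not counted over all genes.

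Isg15 and Usp18 belong to the same modification system. Isg15 (ENSMUSG00000035692) encodes a ubiquitin-like protein that is joined to other proteins during the antiviral response. It ran from 0.273 to 3.92 CPM in the HK group (median 0.885) and from 0.309 to 2.20 CPM in the untreated group (median 0.932). HK female 4 and HK male 5 were the highest, and HK male 1 and untreated male 2 the lowest. Its log2 fold change was 0.16 with a 95% interval from -0.54 to 0.87 (adjusted p = 0.949 in edgeR). The sign rested on 1 mouse and on the tool, with -0.17 without HK female 4 and -0.024 in limma voom. Isg15 was the least counted of the 9 genes, with 4 counts in untreated male 2, for which the exact 95% interval of the counting error alone ran from 0.0842 to 0.791 CPM. Usp18 (ENSMUSG00000030107) encodes the protease that removes ISG15 from its targets and also dampens signalling at the receptor. Its levels were 1.45 to 3.98 CPM under HK (median 1.87) and 1.31 to 3.25 CPM without it (median 2.10). Of the 10 treated mice 3 exceeded the untreated median, and HK male 5 was the highest mouse of all, while untreated male 2 was the lowest. The fitted log2 fold change was 0.035, with a 95% interval from -0.33 to 0.40. Its sign turned in 8 of 33 settings, and it was -0.064 without HK male 5 and 0.13 without untreated female 3. Usp18 shares 124 exon bases with the long noncoding RNA gene Gm44148 on the opposite strand, and since the use of strand in counting is not given in the sources used here, reads of the pair cannot be told apart.

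Ifit1, Ifit3, Oasl2, Rsad2 and Bst2 act directly on viruses. Ifit1 (ENSMUSG00000034459) encodes a protein that binds foreign RNA ends and blocks their translation, and Ifit3 (ENSMUSG00000074896) a partner of the same family. Ifit1 ran from 1.04 to 5.72 CPM in the HK group (median 2.46) and from 1.27 to 4.35 CPM in the untreated group (median 2.25). Ifit3 ran from 1.09 to 4.90 CPM in the HK group (median 2.67) and from 1.004 to 4.29 CPM in the untreated group (median 2.29). The same mice were at both ends in the HK group, HK female 4 highest and HK male 1 lowest, and in the untreated group male 3 was the highest for both genes. The log2 fold changes were 0.20 for Ifit1 (95% interval from -0.34 to 0.74) and 0.16 for Ifit3 (from -0.35 to 0.66). With each mouse left out in turn, they ran from 0.026 to 0.32 for Ifit1 and from 0.041 to 0.26 for Ifit3. Both were lowest without HK female 4. Ifit3 was -0.036 within batch 2 alone and 0.46 within batch 1 alone. Both genes have close relatives in the same cluster on chromosome 19, and how the authors' counting treated reads that fit several of them is not known, so both are uncertain in this respect.
Oasl2 (ENSMUSG00000029561) belongs to the oligoadenylate synthetase family, which senses double-stranded RNA. It ran from 0.928 to 8.34 CPM in the HK group (median 2.99) and from 1.004 to 6.09 CPM in the untreated group (median 2.74). In CPM, HK female 4 lay far above the rest of the HK group, and without it the log2 fold change of 0.14 (95% interval from -0.43 to 0.71) became -0.049. Rsad2 (ENSMUSG00000020641), whose product viperin makes a nucleotide that stops viral RNA synthesis, was the single gene with a negative fold change, -0.053 (from -0.55 to 0.45). The sign of Rsad2 turned in 5 of 33 settings. Its value was 0.071 without untreated male 3 and -0.23 without HK female 4. Its levels were 1.28 to 8.61 CPM under HK (median 3.88) and 2.46 to 6.86 CPM without it (median 3.78), and the HK group held both the lowest mouse of all, male 3, and the highest, female 4. Bst2 (ENSMUSG00000046718), which encodes tetherin, a membrane protein that holds budding viruses at the cell surface, ran from 2.29 to 8.32 CPM in the HK group (median 5.17). Untreated mice ran from 2.32 to 6.71 CPM (median 5.07), and 5 of the 10 treated mice exceeded that median. The log2 fold change of Bst2 was 0.13 with an interval from -0.25 to 0.52, the narrowest among the genes described here after that of Usp18. The value was 0.047 without HK male 2 and 0.23 without HK female 3.

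Irf7 (ENSMUSG00000025498) encodes the transcription factor that amplifies the response by inducing the interferon alpha genes. Its levels were 1.04 to 6.98 CPM under HK (median 2.85) and 1.16 to 6.16 CPM without it (median 2.78). HK male 2, of batch 1, was the highest mouse. The other 7 mice of batch 1 lay below the median of batch 2, which was 4.33 CPM. The log2 fold change was 0.22 (95% interval from -0.40 to 0.84), but it was 0.91 within batch 1 alone and -0.20 within batch 2 alone. A test of that difference gave -1.13 on the log2 scale (interval from -2.33 to 0.08, unadjusted p = 0.0651, adjusted p = 0.9997 in edgeR), or -0.46 without HK male 2. The difference was called only when no filter was used (adjusted p = 0.0231 in edgeR). That fit put the common trend in place of each gene's own spread. Irf7 shares 45 exon bases with Phrf1 on the opposite strand, which cannot be separated either.
Rtp4 (ENSMUSG00000033355), on chromosome 16 from 23520291 to 23614222, encodes a protein that helps carry receptors to the cell membrane and is strongly induced by interferon. It had the lowest p of the 9 genes. Levels ran from 1.04 to 4.20 CPM in the HK group (median 2.09) and from 0.743 to 3.28 CPM in the untreated group (median 1.60). HK female 4 was the highest and untreated female 1 the lowest mouse, and 8 of the 10 treated mice exceeded the untreated median. The log2 fold change was 0.33 (95% interval from -0.15 to 0.80, unadjusted p = 0.168, adjusted p = 0.832 in edgeR). This difference lay within the spread between mice. The log2 fold change of Rtp4 was 0.034 in males alone and 0.60 in females alone. A test of whether the response differed between the sexes did not call it (unadjusted p = 0.233, adjusted p = 0.998 in edgeR). Rtp4 shares 296 exon bases with the transcript Gm45338 on the same strand, so its counts may hold reads of that gene.

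Genes upstream of the 9 were measured too. Of 21 genes for interferon ligands, 14 had no count in any mouse and the other 7 had 12 counts over all 20 mice together, so the ligands were at or under the limit of detection in both groups; 0 counts allow at most 3. Of 13 receptor and signal transducer genes, 12 passed the filter, with 4 higher and 8 lower in HK-treated mice and 0 called. Ifnar2, a receptor chain, had the lowest p among the named ones, with 2.32 ± 0.752 CPM (SD, n = 10) under HK and 2.90 ± 0.585 CPM (SD, n = 10) without it; its log2 fold change was -0.34 (unadjusted p = 0.0215, adjusted p = 0.795 in edgeR). The fold changes were -0.15 for Ifnar1, the other chain, 0.043 for Jak1 and -0.089 for Tyk2. For Stat2 and Irf9, whose products act in the nucleus, they were -0.014 and -0.088. None of these genes was called.
Sensors of nucleic acids, which start interferon production, gave 4 higher and 11 lower of 15 genes that passed the filter among 18 listed, with 0 called. Ddx58, which encodes the RNA sensor RIG-I, had a log2 fold change of -0.22, Ifih1, which encodes the RNA sensor MDA5, of 0.15, and Tmem173, which encodes the adaptor STING, of 0.18. The transcription factor genes Irf1 and Irf3 had -0.096 and 0.0014. The DNA sensor gene Cgas and Socs1, a feedback inhibitor of the kinases, did not pass the filter. Of 93 other interferon-induced genes, 75 passed it, with 32 higher, 43 lower, 0 called and a median log2 fold change of -0.0093. The lowest p-values of this list belonged, among the higher genes, to the guanylate-binding protein gene Gbp7 (0.24), to Oas1a (0.56) and to Helz2 (0.24), and among the lower ones to the immunoproteasome gene Psmb10 (-0.20), to Tor3a (-0.19) and to Shisa5 (-0.33), all on the log2 scale and with an adjusted p of at least 0.795 in edgeR.

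Males and females did not differ beyond the spread between mice for any of the 9 genes. Over all genes 2197 were called between the sexes (16.1%), and 0 of the 9 were among them, with 0 also at an unadjusted p under 0.05, against 2120 genes higher and 2011 lower in males over all 13626. Of the 9, 5 were higher in males and 4 in females. Rsad2 had the lowest p, with a median of 3.17 CPM in males, where it ran from 1.28 to 6.40 CPM, and of 4.44 CPM in females, where it ran from 2.46 to 8.61 CPM. The sexes overlapped widely, and its log2 fold change of males against females was -0.40 (95% interval from -0.90 to 0.10, adjusted p = 0.277 in edgeR), called only without a filter (adjusted p = 0.0237). Without a filter, edgeR put the common trend in place of each gene's own spread. Whether the response to HK differed between the sexes was tested as an interaction over 13800 genes, of which 0 passed (0%), while 250 and 233 had an unadjusted p under 0.05 with a larger and a smaller value in males. The lowest unadjusted p of the 9 genes in that test was that of Oasl2, with -0.67 on the log2 scale (interval from -1.80 to 0.46, unadjusted p = 0.232, adjusted p = 0.998). The test of a response that differs between the batches likewise called 0 of 13800 genes (0%), while 217 and 199 had an unadjusted p under 0.05 with a larger and a smaller value in batch 2.

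**Figure D2:**
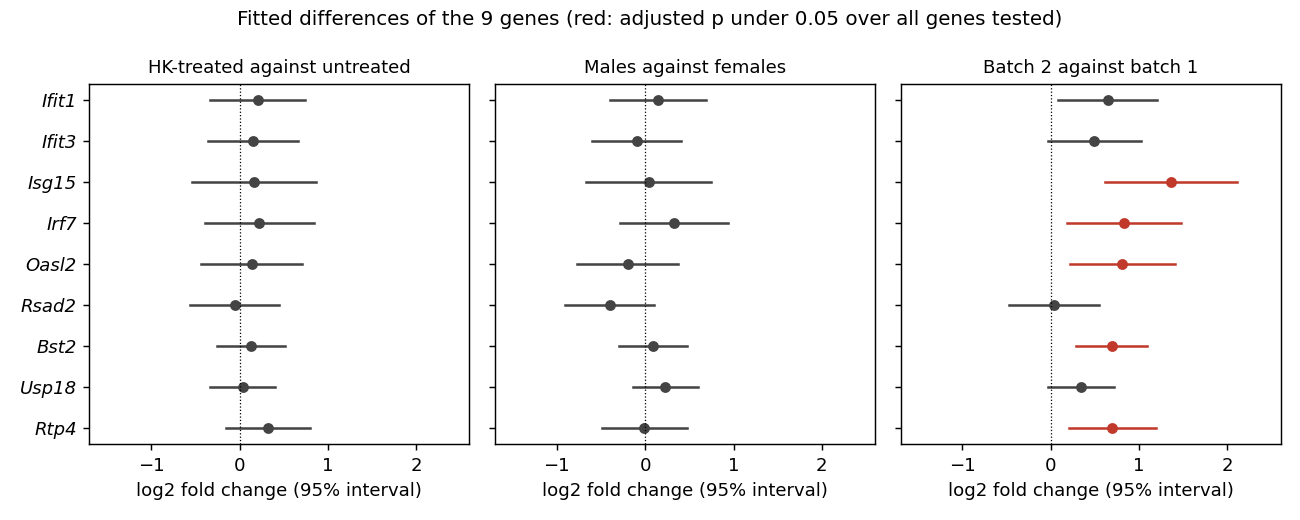
Log2 fold changes of the 9 genes with 95% intervals, from the fit across 13626 genes, for HK-treated against untreated mice, males against females, and batch 2 against batch 1; red marks an adjusted p under 0.05. All intervals of the left and middle panels include 0, and 5 genes passed the threshold in the right panel.

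Between the batches 5 of the 9 genes were called. In the fit all 9 had a positive log2 fold change of batch 2 against batch 1, and those that passed the threshold were Isg15, Irf7, Oasl2, Bst2 and Rtp4. Over all genes 5062 passed (37.1%), of which 2474 were higher in batch 2 (18.2%), so calls between the batches were common in general. The median log2 fold change of the 9 genes was 0.69, against 0.0025 over all genes tested. Isg15 differed most, with a median of 0.640 CPM in batch 1, where it ran from 0.273 to 0.943 CPM, and of 1.32 CPM in batch 2, where it ran from 0.425 to 3.92 CPM. All 8 mice of batch 1 were below the median of batch 2, although the batches overlapped. Its log2 fold change was 1.36 (95% interval from 0.61 to 2.11, adjusted p = 0.00579 in edgeR).
Bst2 showed the same order, with a median of 3.80 CPM in batch 1 and 5.80 CPM in batch 2, a log2 fold change of 0.69 (from 0.29 to 1.09, adjusted p = 0.00810). Isg15 and Bst2 were called under all 26 alternatives tried for this comparison. Irf7 had 0.83 (from 0.18 to 1.47, adjusted p = 0.0412), and this call was lost, with an adjusted p of 0.0512 to 0.0870, when any 1 mouse was left out other than untreated females 4 and 5, HK males 2, 3 and 4 and HK female 3. The value of Irf7 was 1.26 without HK male 2 and 0.69 without HK male 1. Oasl2 had 0.81 (from 0.22 to 1.403, adjusted p = 0.0300), lost without untreated male 1, 2 or 3, untreated female 1, HK male 1 or HK female 4 (adjusted p from 0.0508 to 0.0739). Rtp4 had 0.69 (from 0.20 to 1.19, adjusted p = 0.0259), lost without untreated male 2, untreated female 1, HK male 1 or HK female 4 (adjusted p from 0.0534 to 0.0613). Those calls lay close to the threshold. Ifit1 was just outside it at 0.65 (from 0.09 to 1.204, adjusted p = 0.0645), and it was called by DESeq2's Wald test (adjusted p = 0.0473), without any filter, and with untreated female 5, HK female 3 or HK female 5 left out. Ifit3 had 0.49 and was called only without any filter (adjusted p = 0.0143). The fit without any filter put the common trend in place of each gene's own spread, which also bears on the call of Ifit1 in it. Usp18 had 0.34, and Rsad2 had 0.037, with a sign that turned in 5 of the 26 alternatives, limma voom among them (-0.12). The median of Rsad2 was 4.43 CPM in batch 1 and 3.66 CPM in batch 2, and 3 of the 8 mice of batch 1 were below the latter.

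**Figure D3:**
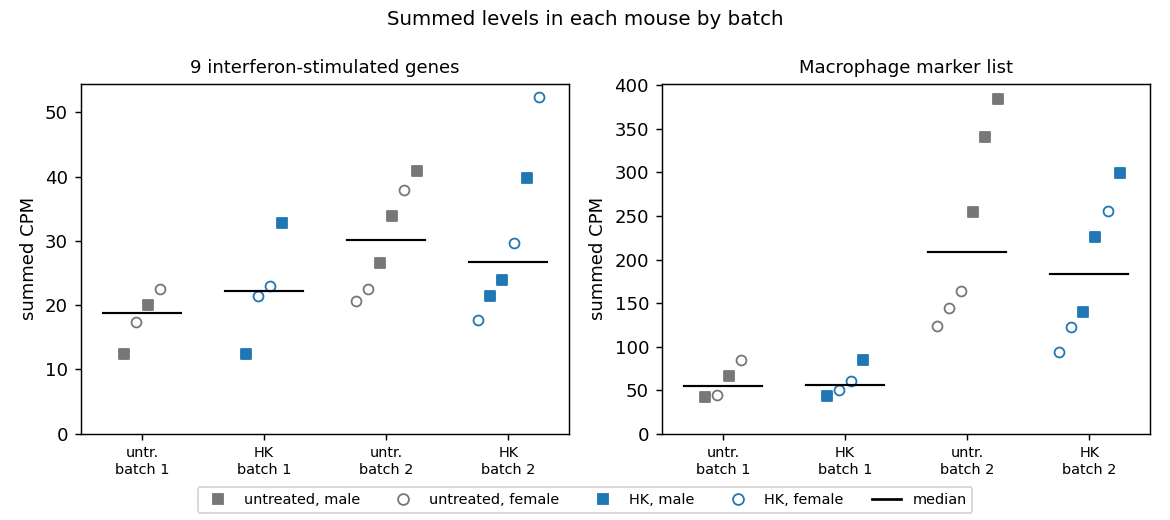
Summed CPM of the 9 interferon-stimulated genes (left) and of the 13 macrophage marker genes (right) in each mouse, by treatment and batch; squares are males, circles females, lines medians. The mean of the macrophage sum was 59.7 CPM in batch 1 and 212 CPM in batch 2.

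Markers of other cells moved with the batch as well. All 13 macrophage marker genes passed the filter and were called higher in batch 2, with a median log2 fold change of 1.90. Their summed level was 59.7 ± 17.7 CPM (SD, n = 8) in batch 1 and 212 ± 95.2 CPM (SD, n = 12) in batch 2, with Lyz2 as the most abundant gene and none of them at 0 over all mice. Of 8 neutrophil genes, 3 passed the filter and 3 were called higher in batch 2, with sums of 0.703 ± 0.252 CPM (SD, n = 8) and 3.53 ± 3.89 CPM (SD, n = 12). All 7 genes of fibro-adipogenic progenitors, the connective tissue cells of muscle, were called higher in batch 2, with sums of 327 ± 108 CPM (SD, n = 8) and 641 ± 313 CPM (SD, n = 12). Of 10 endothelial genes 3 were called higher and 2 were lower by sign, while 18.2% of all genes were called higher. The part of these cells in the batch difference of the 9 genes was not tested, and in bulk RNA more cells of a type and more RNA per cell cannot be told apart. Of 11 T and NK cell genes and of 5 genes of plasmacytoid dendritic cells, which are strong producers of interferon, 0 passed the filter. Of 7 B cell genes 1 passed, Ighm, with a log2 fold change of -0.17 between the batches. Between HK-treated and untreated mice, 11 of the 13 macrophage genes, 10 of 10 endothelial genes and 7 of 7 progenitor genes were lower in HK-treated mice, with 0 called in each list, and the 10 muscle fibre genes gave 6 higher and 4 lower. Over all genes tested 51.0% were higher. Genes of 1 list share the same libraries, so these counts are not of independent genes. Sums under HK and without it were 138 ± 91.4 and 165 ± 122 CPM for macrophage genes (SD, n = 10 each). They were 255 ± 65.9 and 289 ± 57.5 CPM for endothelial genes, and 438 ± 208 and 593 ± 354 CPM for progenitor genes. The 3 neutrophil genes that passed the filter were lower too (median log2 fold change -0.52), while Ighm was higher (0.39), again with 0 called.
Other genes of the interferon pathway are given beside the 18.2% of all genes called higher in batch 2. Of the 75 other interferon-induced genes that passed the filter, 24 were called higher and 1 lower, with 59 higher and 16 lower by sign, and of 15 sensor genes 8 were called higher and 0 lower. Of 12 receptor and transducer genes 6 were called higher and 0 lower, with 9 higher and 3 lower by sign, among the called ones Irf9 (log2 fold change 0.63, adjusted p = 0.00156) and Stat2 (0.57, adjusted p = 0.0160).

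With batch and sex taken out, the 9 genes still varied together from mouse to mouse. Each gene's log2 CPM, adjusted for batch and sex, was centred and divided by its SD, and the mean over the 9 genes was taken for each mouse. This mean was highest in HK female 4 (1.57) and HK male 2 (1.35), each of which was among the 5 highest mice for all 9 genes. HK male 5 (0.94), untreated male 3 (0.86) and untreated female 3 (0.79) came next. The lowest were HK female 3 (-1.25), untreated male 2 (-1.15) and HK male 1 (-1.12). Both ends of the order thus held mice of both groups. They also held both sexes and both batches, but the adjustment had levelled the means of these beforehand. In the HK group the mean ran from -1.25 to 1.57 with a median of 0.036, and in the untreated group from -1.15 to 0.86 with a median of -0.043, so HK-treated mice reached higher while the medians nearly coincided.

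**Figure D4:**
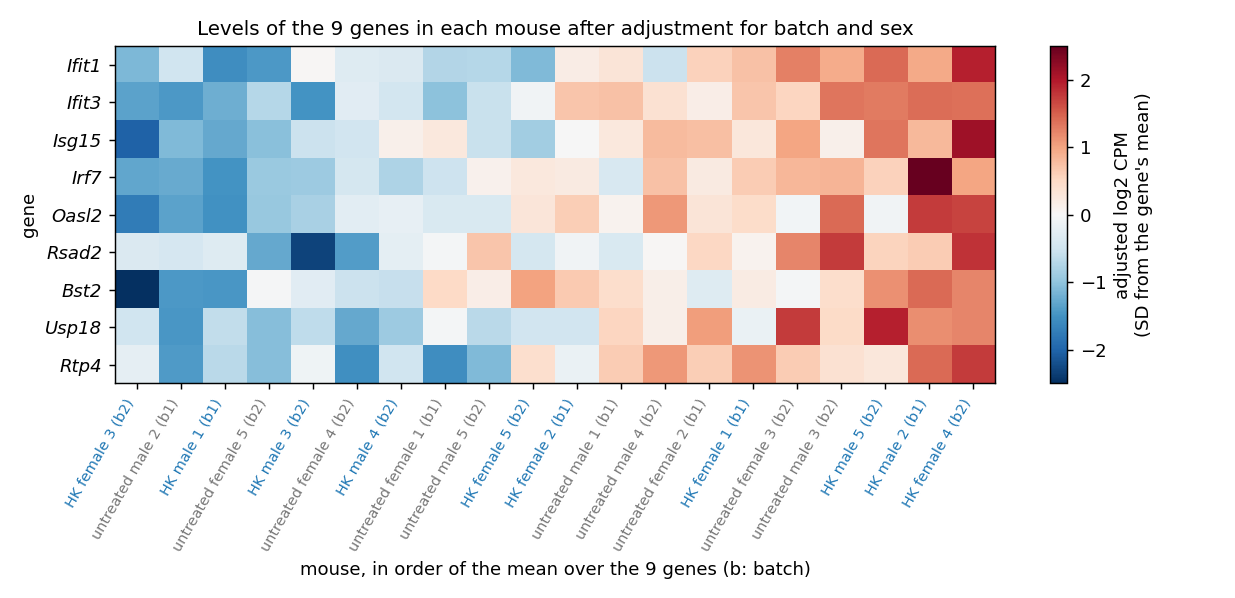
Adjusted log2 CPM of the 9 genes (vertical) in the 20 mice (horizontal, in order of the mean over the 9 genes), in SD from the gene's mean; blue names are HK-treated mice, grey names untreated mice, and b1 and b2 give the batch. HK female 4 and HK male 2, on the right, were high in all 9 genes.

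Over the 36 pairs of the 9 genes, Pearson's r across the 20 mice ran from 0.387 to 0.891 with a median of 0.715, and Spearman's rho from 0.448 to 0.916 with a median of 0.723. Pairs of the 9 genes with all other genes tested had a median r of -0.0080. The points of each correlation are the same 20 libraries and so share depth and the makeup of the tissue, and no p is given. The highest pair was Irf7 with Oasl2 (0.891), the 2 of the 7 searched genes without a motif match, followed by Ifit3 with Oasl2 (0.871), and the lowest was Rsad2 with Bst2 (0.387). Within batch 1 (8 mice) the median r was 0.778, and within batch 2 (12 mice) it was 0.706. Without HK female 4 and HK male 2, the mice farthest from the median, it was 0.653 over the remaining 18. The lowest pair was then 0.258, and 29 of the 36 pairs were above 0.5, against 34 over all 20 mice. The covariation was thus weaker without those mice but did not rest on them alone. The spread between mice was wide for most of the 9: the biological coefficient of variation was from 0.236 for Usp18 to 0.483 for Isg15, against a median of 0.135 over all genes. For 8 of the 9 it was above the trend of genes at the same level, which for Isg15 was 0.287, and for Usp18 it was below.

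The 8 genes most like the mean of the 9, by Pearson's r over the 20 mice among 13617 genes compared, were Trim30a (0.873), Psmb8 (0.847), AW112010 (0.839), Ifi44 (0.835), B2m (0.828), H2-D1 (0.810), Uba7 (0.798) and Zbp1 (0.797). Trim30a encodes a tripartite-motif protein, Psmb8 a subunit of the immunoproteasome, H2-D1 a heavy chain of MHC class I, Uba7 the enzyme that activates ISG15 for conjugation, and Zbp1 a sensor of Z-form nucleic acids. AW112010 is annotated as a long noncoding RNA gene. The median r over all genes compared was -0.013. Of the 8 genes, 5 were in the lists of interferon genes used here, as were 24 of the 50 genes with the highest r, against 108 of all 13617. These lists were chosen with earlier results of these data known, which limits that comparison. Absence from them does not mean that interferon leaves a gene unchanged. Within batch 1 the r of Trim30a was 0.888, within batch 2 it was 0.878, and without HK female 4 and HK male 2 it was 0.840. The order of the others was less firm, since 5 of the 8 were still among the top 8 without HK female 4, and 3 were without adjustment for batch and sex.

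**Figure D5:**
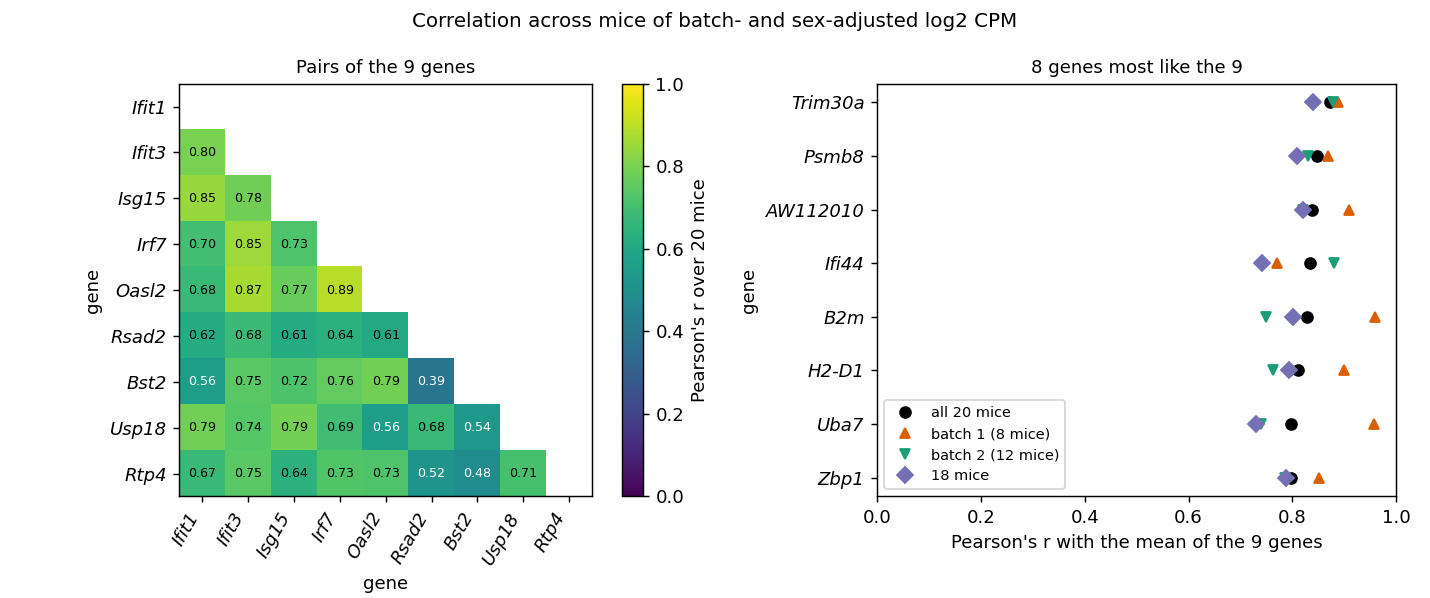
Left, Pearson's r across 20 mice for the 36 pairs of the 9 genes; right, r of the 8 genes most like the mean of the 9, over all 20 mice, within each batch and over 18 mice, leaving out HK female 4 and HK male 2. All 36 pairs were positive, with 34 above 0.5.

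None of the 8 was called between HK-treated and untreated mice. Trim30a had 3.43 ± 1.07 CPM (SD, n = 10) under HK and 3.62 ± 0.896 CPM (SD, n = 10) without it, or -0.062 as log2 fold change (adjusted p = 0.963 in edgeR), and B2m had 67.3 ± 13.2 CPM (SD, n = 10) and 66.2 ± 14.7 CPM (SD, n = 10), or 0.038 (adjusted p = 0.959). Of the 7 genes of this group with a promoter in the RefSeq table, Trim30a and B2m held GAAANNGAAA.
Lists of genes were set beside the mean of the 9 in the same way. The mean of the other interferon-induced genes had r = 0.895 with it (rho = 0.908, 0.959 within batch 1, 0.869 within batch 2 and 0.865 without HK female 4 and HK male 2). Receptors and transducers had r = 0.518 (rho = 0.558), with 0.899 within batch 1 and 0.359 within batch 2, and sensors had r = 0.593 (rho = 0.595), with 0.928 and 0.353. The macrophage genes had r = 0.337 (rho = 0.355), with 0.801 within the 8 mice of batch 1 and 0.061 within the 12 mice of batch 2, and the difference between the batches was not tested. Interferon regulatory factors had 0.346 (rho = 0.383), with 0.850 and -0.029 in the batches, and neutrophil genes 0.346 (rho = 0.356), with 0.247 and 0.393. Endothelial genes had 0.331 (rho = 0.217), with 0.558 in batch 1 and 0.136 in batch 2, and progenitor genes 0.258 (rho = 0.241), with 0.640 and -0.016. Muscle fibre genes had -0.237 (rho = -0.287), with -0.430 and -0.113, and the log2 total count 0.355 (rho = 0.347), with 0.524 and 0.213. Leaving out HK female 4 and HK male 2 moved several of these values, to 0.553 for the regulatory factors, 0.212 for neutrophil, 0.172 for endothelial and -0.451 for muscle fibre genes and to 0.20 for the total count. It gave 0.437 for macrophage and 0.273 for progenitor genes. In all, 10 such relations were computed. Of these, the list of other interferon-induced genes had the highest r.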

How the data were processed

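RNA of 20 mouse gastrocnemius muscles was depleted of ribosomal RNA and sequenced. The authors aligned the reads with STAR 2.6.1c to GRCm38.p6 and deposited whole-number counts per gene without normalization. The counting tool is not given in the sources used here, nor are its use of strand and its treatment of shared reads. Symbols, positions and exon lengths came from GENCODE M21, an older release than the M25 of the study's methods (55141 identifiers matched, 260 did not). Counts were analysed with edgeR 4.0.16 in R 4.3.3: filterByExpr, TMM scaling and the quasi-likelihood test with batch, sex and treatment as terms, with Benjamini-Hochberg adjustment over all genes tested and a threshold of 0.05. Each interaction had its own fit. DESeq2 1.42.0 and limma 3.58.1 (voom) were alternatives, beside other scaling, filters, covariates, a replicate block, subsets and each mouse left out. Log2 CPM used a prior count of 2 and were adjusted with removeBatchEffect. CPM intervals are exact binomial and cover counting error only. As a check for repeated libraries, in 16 pairs alike in treatment, sex and batch, chi-square over degrees of freedom was 8.06 to 49.6. Figures were drawn with matplotlib 3.10.9. Genes named beside the 9 were 13 genes of the pathway where they passed the filter, the 3 of the lowest p in each direction among other interferon-induced genes, and the 8 most correlated with the 9. The 9 genes and the gene lists were chosen with earlier results of these data known.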

Additional observations from a re-analysis of the deposited data

Results flagged for a closer look

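In the HK group 1 mouse, HK female 4, stood far above the other 9 in CPM for 3 genes. The gap to the next mouse, as a share of the range of the 10 mice, was 0.503 for Oasl2, 0.530 for Rsad2 and 0.505 for Rtp4, each above the critical value of Dixon's test for 10 values. For normally distributed values, chance gives such a gap in about 1 of 20 groups. The gaps were taken on CPM, unadjusted for batch and sex, so that rate need not hold for them. Gaps on the log scale were not examined and may be smaller. In all, 18 groups were examined, and the 3 flags come from the same mouse in genes that vary together. Its library held 17951683 counts, the most of the 12 mice of batch 2 (median 15766066), and its share of mitochondrial counts was the lowest of the 20, at 6.31%. Without it, the log2 fold changes of HK-treated against untreated mice were -0.049 for Oasl2, -0.23 for Rsad2 and 0.21 for Rtp4. The cause of its high levels was not tested.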

How the results depend on the processing

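Of 1568 values under alternatives, 1462 kept their reading, 24 were weaker, 8 stronger, 62 had the other sign and 12 were counts or correlations that moved. A fold change kept its reading if it had the same sign and was called or not called as in the main fit. It was weaker where a call was lost and stronger where a call was gained. For genes not called in the main fit, a kept reading thus says little beyond the sign. No alternative called any of the 9 genes between HK-treated and untreated mice. Ifit1, Bst2 and Rtp4 kept their sign in all 33 settings and the other 6 did not, but their values came near 0, at 0.026 for Ifit1 without HK female 4, 0.047 for Bst2 without HK male 2 and 0.034 for Rtp4 in males alone. Without a filter on low counts, edgeR put the common trend in place of each gene's own spread, and it called 502 genes for treatment, 314 for a treatment effect that differs between the sexes and 225 for one that differs between the batches; Stat2 had 0.00012. DESeq2 called 6 genes for treatment. The labels give the same replicate numbers to both groups but name no pairing; with a replicate block of 10 pairs, 0 genes were called and 8 of the 9 were higher, and the median of their log2 fold changes was 0.072. The correlation of same-numbered mice ran from -0.330 to 0.232, and among the 2 or 3 mice of the other group alike in sex and batch, 9 of 20 mice correlated best with their own number, where 8 would without any pairing. Log2 fold changes of HK against untreated mice that turned were, for Irf3, -0.0042 with at least 10 counts in 10 mice, -0.0040 without covariates, -0.0029 with batch alone as covariate, -0.023 in batch 2 and -0.029 in males. Isg15 had -0.024 in limma voom, where Rsad2 had -0.12 between the batches. Batch 1 alone gave Isg15 -0.028, Rsad2 0.091, Usp18 -0.034, Stat2 0.046, Irf9 0.054, Ifih1 -0.11 and Irf1 0.019. Batch 2 alone gave Ifit3 -0.036, Irf7 -0.20 and Oasl2 -0.074, with 5 of the 9 higher. Males alone gave Ifit3 -0.054, Oasl2 -0.20, Stat2 0.032, Irf9 0.016 and Irf1 0.047, and females alone Rsad2 0.19, Usp18 -0.11 and Tyk2 0.049. Without adjustment for batch and sex, 3 of the 8 most similar genes were shared. With each mouse left out in turn, 0 to 1 genes were called for treatment, 5 to 9 of the 9 genes were higher, and 5 to 8 of the most similar genes were shared. Over these fits the treatment values ran from 0.026 to 0.32 for Ifit1, 0.041 to 0.26 for Ifit3, 0.047 to 0.23 for Bst2, 0.21 to 0.43 for Rtp4, -0.17 to 0.30 for Isg15, -0.085 to 0.32 for Irf7, -0.049 to 0.26 for Oasl2, -0.23 to 0.071 for Rsad2, -0.064 to 0.13 for Usp18, -0.085 to 0.11 for Stat2, -0.13 to 0.033 for Irf9, -0.21 to 0.016 for Irf1 and -0.040 to 0.040 for Irf3, and the batch value of Rsad2 from -0.12 to 0.12. Oas1a did not pass the filter in every setting and then has no value. Low counts limit precision, with as few as 4 counts for Isg15 in 1 mouse.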
